A study of Mus musculus with 4 samples.

Results

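Isl1 is a LIM-homeodomain transcription factor that marks the second heart field, the progenitor pool that adds the outflow tract and the right ventricle to the growing heart. The LIM domains of such factors do not bind DNA. They dock on an adaptor, Ldb1 or its relative Ldb2, which dimerises and so brings together proteins that sit at separate sites on DNA, and single-stranded DNA-binding proteins of the Ssbp family bind the adaptor and protect it from degradation. LIM-only proteins of the Lmo family carry LIM domains without a homeodomain and can occupy the same docking site.

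The transcripts described here are Isl1 and 9 genes of this machinery. They are the LIM-homeodomain genes Isl2 and Lhx2, the LIM-only genes Lmo1 and Lmo4, the adaptors Ldb1 and Ldb2, and the stabilisers Ssbp2, Ssbp3 and Ssbp4. The members were taken by symbol from a table of 31507 RefSeq transcript entries for 20701 gene symbols, keeping the entry of each symbol that had most counts over the 4 libraries. All 10 members were found, and 8 passed the filter on low counts and were tested, while Isl2 and Lhx2 did not.

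The libraries came from mouse E14 Tg(Nkx2-5-EmGFP) embryonic stem cells, which carry a green fluorescent reporter of the cardiac factor Nkx2-5. At day 5 of differentiation the reporter-positive cells, called cardiac progenitor cells (CPCs), were sorted and their poly(A) RNA was sequenced. Control means control cells of that reporter line. Isl1_KO means Isl1-/- cells of the same line, made with CRISPR/Cas9 and a pair of guide RNAs. Each group has 2 libraries, which the paper's methods assign to 2 clones. The sample titles give replicate numbers and no clone. Both groups carry the reporter and were grown on mitomycin-treated feeder fibroblasts with leukemia inhibitory factor before differentiation. By the paper's methods every library is a single clone, so differences between clones and the effect of the genotype cannot be told apart. Agreement of the libraries of a group does not separate them. The comparison asks how the transcripts of the Isl1 complex stood in progenitors without Isl1.

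Over 1 entry per gene the totals were 8821536 and 9147419 counts in control and 13186103 and 11388326 counts in Isl1_KO. Divided by its degrees of freedom, the chi-square statistic between the control libraries was 1.12 over 12356 genes, where counting error alone gives 1, and it was 19.0 over 12334 genes for the Isl1_KO pair. Whether the control libraries came from separate cultures is not known, and their spread may be technical. The groups also differed on the Y chromosome, where no member lies. The summed level of 4 genes there was 65.7 and 62.1 counts-per-million (CPM) in control and 0.0768 and 0.0867 CPM in Isl1_KO. The libraries of each group agreed here, so a difference between clones cannot be told apart from the genotype. Of the 7 markers of cardiac progenitors all were detected, Nkx2-5, Tbx5, Mef2c and Hand2 were called lower in Isl1_KO, and the list summed to 972 and 971 CPM in control and to 510 and 429 CPM in Isl1_KO. Markers of pluripotent cells summed to 10.5 and 11.3 CPM in control and to 11.1 and 23.7 CPM in Isl1_KO. Those of endoderm summed to 56.4 and 55.3 CPM in control and to 54.5 and 30.9 CPM in Isl1_KO. In both lists 0 genes were called, and replicate 2 of Isl1_KO stood apart from the other libraries. In bulk RNA, fewer cells of a type and less RNA per cell cannot be told apart.

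The transcription start regions of 9 of the 10 members were in the RefSeq promoter table (build GRCm38.p6, 16 entries), and Ldb2 had none. The 250 bases before the start were searched on both strands for TAAT, the core that many homeodomains recognise, with its reverse complement ATTA and with overlapping matches counted. The motif was in 5 of the 16 member entries (31.2%), against 54.9% of the 32851 promoters in the table. The member entries had a median GC content of 71.6%, against 52.4% for all promoters. Those of Isl1 (chr13:116309689-116309938, minus strand), Ssbp2 (chr13:91460847-91461096, plus strand) and Lmo1 (chr7:109175208-109175457, minus strand) are shown, because Isl1 is the gene that was edited, Ssbp2 had the next smallest adjusted p and Lmo1 the highest fold change of the members. Capitals mark TAAT or ATTA, 5′ to 3′.
Isl1: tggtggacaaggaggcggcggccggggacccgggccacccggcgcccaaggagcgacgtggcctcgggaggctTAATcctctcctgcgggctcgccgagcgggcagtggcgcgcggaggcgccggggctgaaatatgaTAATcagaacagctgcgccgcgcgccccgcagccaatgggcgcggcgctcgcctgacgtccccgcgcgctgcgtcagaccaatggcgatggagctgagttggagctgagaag
Ssbp2: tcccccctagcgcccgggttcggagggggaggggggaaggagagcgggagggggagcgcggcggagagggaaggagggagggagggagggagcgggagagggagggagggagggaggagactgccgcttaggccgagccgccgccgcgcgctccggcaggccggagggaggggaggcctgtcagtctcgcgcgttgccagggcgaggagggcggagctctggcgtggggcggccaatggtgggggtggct
Lmo1: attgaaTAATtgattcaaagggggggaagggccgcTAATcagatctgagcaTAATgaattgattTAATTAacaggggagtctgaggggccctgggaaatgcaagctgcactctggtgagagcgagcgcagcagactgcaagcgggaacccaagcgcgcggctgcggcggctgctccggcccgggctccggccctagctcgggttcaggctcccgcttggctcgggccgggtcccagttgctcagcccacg
The Isl1 window held 2 matches, the Lmo1 window shown held 5 and the Ssbp2 window held 0. The other Lmo1 entry (chr7:109175150-109175399, minus strand) overlaps the one shown and held 2 matches. The 16 member entries are thus not independent of each other. These matches describe the letters of the reference and were not linked to binding.

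Among the members, Isl1 itself was lower in Isl1_KO and no other member passed the threshold, an adjusted p under 0.05 in edgeR's quasi-likelihood test with Benjamini-Hochberg adjustment over 12715 genes. That is 1 of the 8 tested members, against a background of 2.45% of all tested genes called in either direction, 1.94% lower and 0.511% higher. The median log2 fold change of the 8 tested members was -0.15, with 4 below 0 and 4 above, and the median of all tested genes was -0.0025. In 6 of the 8 tested members the Isl1_KO libraries both lay on 1 side of the control libraries in CPM, 4 lower and 2 higher, and this was so for 58.1% of all tested genes.

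Isl1 (chromosome 13, 117088478 to 117099896, minus strand, mm9) was counted 309 and 326 times in control and 17 and 24 times in Isl1_KO. In RPKM, which scales reads by library size and by transcript length so that levels of different genes can be set side by side, it stood at 7.85 and 7.99 in control and at 0.29 and 0.48 in Isl1_KO. The groups were far apart, and both Isl1_KO libraries lay above the counting floor of 3 counts (0.230 and 0.260 CPM). The level fell from 35.3 ± 0.421 CPM to 1.69 ± 0.548 CPM (SD, n = 2 each), which left 4.79% of the control level. On the log2 scale the change was -4.39 (SE 0.213, 95% interval -4.93 to -3.85), and edgeR's quasi-likelihood test gave an adjusted p of 0.00276. The table gives 1 value for the whole transcript, so the position of the remaining reads relative to the edit was not resolved here.

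The other LIM-homeodomain members were close to the limit of detection. Isl2 (chromosome 9, 55386479 to 55393987), the paralog known for its part in motor neurons, had 7 and 6 control counts and 6 and 6 Isl1_KO counts. Lhx2 (chromosome 2, 38194801 to 38225253), a factor of forebrain, eye and hair follicle development, had 7 and 10 control counts and 9 and 3 Isl1_KO counts. Divided by library size, the Isl1_KO libraries were the lower ones for both genes, but the summed counts gave ratios of Isl1_KO to control whose exact 95% intervals included 1. The ratio was 0.675 (0.282 to 1.61) for Isl2 and 0.516 (0.225 to 1.15) for Lhx2, and these intervals cover counting error only. A difference was not detectable at this depth, and no gain of Isl2 beyond 1.61-fold was within the interval. Of the 8 neural markers, Olig2 was at 0 in all 4 libraries, and Neurog2 was at 0 in both control libraries. Tubb3 stood at 31.0 and 30.4 CPM in control and at 25.5 and 12.7 CPM in Isl1_KO. Sox2 stood at 21.3 and 21.6 CPM in control and at 15.4 and 26.7 CPM in Isl1_KO. Both Isl1_KO libraries were below control for Sox1, Pax6 and Tubb3, and above it for Mnx1 and Pou4f1. Of these, Sox1, Mnx1 and Pou4f1 had 1 to 13 counts a library and were not tested. The groups were apart in this way for 58.1% of all tested genes. The summed level of the 8 neural markers was 57.2 and 56.5 CPM in control and 43.4 and 42.6 CPM in Isl1_KO.

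**Figure D1:**
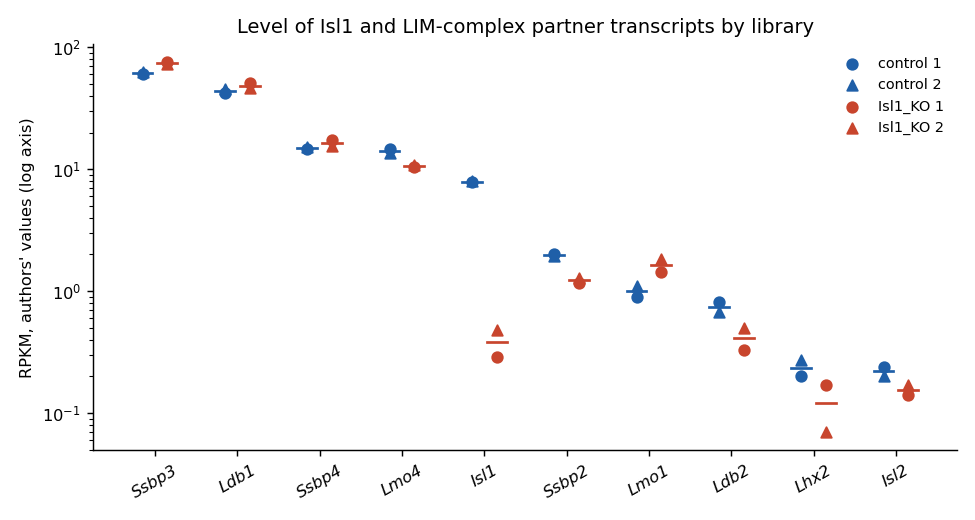
RPKM of the 10 members (log axis) in each of the 4 libraries, ordered by control mean, with circles for replicate 1, triangles for replicate 2, blue for control, red for Isl1_KO and a bar at each group mean. Isl1 drops from 7.92 to 0.385 RPKM, while Ssbp3 and Ldb1 are the highest members in all 4 libraries.

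The LIM-only members stood on opposite sides of control, and neither passed the threshold. Lmo4 (chromosome 3, 143851494 to 143868184), a widely expressed LIM-only gene, gave 389 and 373 control counts and 410 and 364 Isl1_KO counts, or 14.67 and 13.56 RPKM against 10.44 and 10.89 RPKM. Both Isl1_KO libraries were below both control libraries. Its log2 fold change was -0.43 (SE 0.0974, 95% interval -0.68 to -0.18), and the edgeR adjusted p was 0.0925.

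Lmo1 (chromosome 7, 116282086 to 116313822), best known from the nervous system and as an oncogene in T-cell leukemia and neuroblastoma, was a low transcript. It gave 18 and 23 control counts and 43 and 46 Isl1_KO counts, or 0.90 and 1.11 RPKM against 1.45 and 1.82 RPKM. Here both Isl1_KO libraries were above both control libraries, and the log2 fold change of 0.67 (SE 0.269, 95% interval -0.01 to 1.35) had an edgeR adjusted p of 0.220. Lmo1 remained far below Lmo4 in RPKM in every library.

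Among the adaptors, Ldb1 was abundant and Ldb2 scarce. Ldb1 (chromosome 19, 46107083 to 46119704), the adaptor that binds Isl1 in cardiac progenitors and the Lmo2 complex in blood, gave 1505 and 1668 control counts and 2663 and 2064 Isl1_KO counts. In RPKM these were 42.33 and 45.24 against 50.60 and 46.06, and in CPM the ranges of the groups overlapped. Its log2 fold change was 0.12 with SE 0.0903 and an edgeR adjusted p of 0.471, and the 95% interval of -0.11 to 0.35 holds no change beyond 1.27-fold upward or below 0.927 of control. Ldb1 shares 177 exon bases with Pprc1 on the opposite strand, and reads were counted on both strands, so a part of these reads could belong to Pprc1.

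Ldb2 (chromosome 5, 44863372 to 45190946), the second adaptor, gave 34 and 29 control counts and 20 and 26 Isl1_KO counts, or 0.82 and 0.67 RPKM against 0.33 and 0.50 RPKM. Both Isl1_KO libraries were the lower ones. The log2 change was -0.89 (SE 0.309, 95% interval -1.68 to -0.11), and the edgeR adjusted p was 0.179. Of the RPKM of both adaptors, Ldb2 made up 1.90% and 1.46% in control and 0.648% and 1.07% in Isl1_KO.

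The Ssbp genes also differed among themselves. Ssbp3 (chromosome 4, 106583306 to 106722299) was the most abundant member, with 3007 and 3252 control counts and 5530 and 4588 Isl1_KO counts, or 60.60 and 63.19 RPKM against 75.29 and 73.36 RPKM. Both Isl1_KO libraries were above both control libraries. The difference on the log2 scale was small, at 0.24 (SE 0.0706, 95% interval 0.06 to 0.42), with an edgeR adjusted p of 0.141. Ssbp4 (chromosome 8, 73121390 to 73132213) had 14.55 and 15.30 RPKM in control and 17.28 and 15.66 RPKM in Isl1_KO, groups that overlapped in CPM, and its log2 fold change was 0.12 with SE 0.111 and an edgeR adjusted p of 0.558.

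Ssbp2 (chromosome 13, 91599888 to 91843034), a stabiliser of Ldb1 with a role in blood stem cells, stood on the other side of control. It gave 207 and 211 counts in the shallower control libraries and 178 and 168 Isl1_KO counts, or 2.00 and 1.96 RPKM against 1.16 and 1.29 RPKM. The pairs were tight and apart, at 23.3 ± 0.289 CPM for control and 14.1 ± 0.631 CPM for Isl1_KO (SD, n = 2 each), which is 60.7% of control. Its log2 fold change was -0.72 (SE 0.118, 95% interval -1.02 to -0.42), and the edgeR adjusted p of 0.0556 lay just above the threshold of 0.05. Without a filter on low counts it was 0.0422 and the gene was called, as were 2.92% of the genes tested in that setting. By the study's criteria, an absolute log2 fold change over 0.58 with an unadjusted p under 0.05 in DESeq2, Ssbp2 was called with Isl1, 2 of the 10 members, where 5.89% of 16855 genes were called. Ssbp2 made up 2.59% and 2.44% of the RPKM of the Ssbp genes in control and 1.24% and 1.43% in Isl1_KO. The gene shares 1765 exon bases with 4833422C13Rik on the opposite strand.

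**Figure D2:**
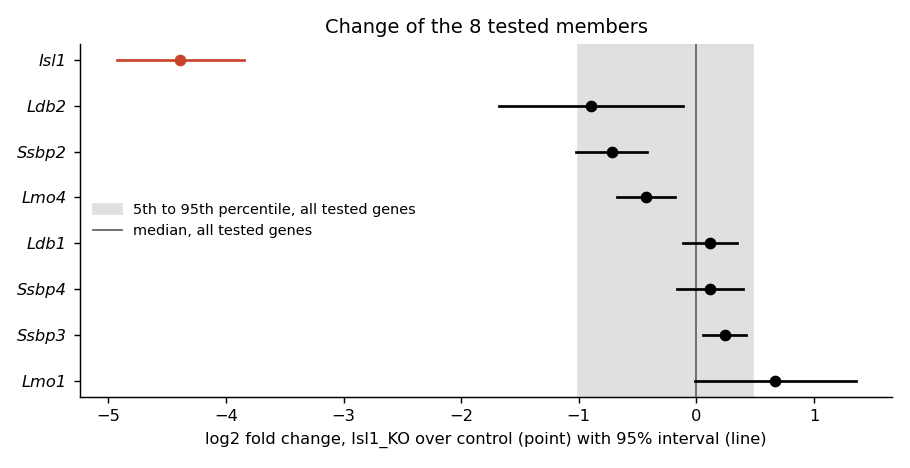
Log2 fold change, Isl1_KO over control, of the 8 tested members (points, red where the adjusted p is under 0.05) with 95% intervals (lines), over the range from the 5th to the 95th percentile of all 12715 tested genes (grey, -1.01 to 0.48). Isl1 lies far outside that range, Lmo1 at 0.67 lies above it, and the other 6 lie within it.

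Which member passed rested on the spread between libraries. With either Isl1_KO library left out, the spread came from the close control pair alone, and 49.4% (without replicate 1) or 32.7% (without replicate 2) of the tested genes were called. Isl1, Lmo4, Ssbp2 and Ssbp3 then passed in both cases, Lmo1 passed without Isl1_KO replicate 1, and Ldb1, Ldb2 and Ssbp4 passed without Isl1_KO replicate 2. With a control library left out, 0.215% or 0.244% of genes were called, and Isl1 was the only member among them, with adjusted p of 0.0371 and 0.0297 in edgeR's test.

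The order of levels in RPKM was almost the same in both groups. In control it ran from Ssbp3 (61.9) and Ldb1 (43.8) through Ssbp4 (14.9), Lmo4 (14.1) and Isl1 (7.92) to Ssbp2 (1.98), Lmo1 (1.01), Ldb2 (0.745), Lhx2 (0.235) and Isl2 (0.22). The neighbours Ssbp4 and Lmo4, and Lhx2 and Isl2, overlapped between the control libraries. In Isl1_KO the head of the order was kept, with Ssbp3 at 74.3, Ldb1 at 48.3, Ssbp4 at 16.5 and Lmo4 at 10.7 RPKM. Isl1 moved from the fifth place to the eighth, at 0.385 RPKM, where it overlapped with Ldb2 (0.415), and Lmo1 (1.64) stood above Ssbp2 (1.23).

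The members were then summed by role, in RPKM, to set the LIM proteins' transcripts against those of their adaptors. The LIM-homeodomain members summed to 8.29 and 8.46 in control and 0.60 and 0.72 in Isl1_KO, a log2 ratio of group means of -3.67, and Isl1 made up nearly all of the control sum. The LIM-only members summed to 15.57 and 14.67 in control and 11.89 and 12.71 in Isl1_KO (log2 ratio -0.30). The sums of the adaptors were 43.15 and 45.91 in control and 50.93 and 46.56 in Isl1_KO (log2 ratio 0.13), and those of the Ssbp genes were 77.15 and 80.45 against 93.73 and 90.31 (log2 ratio 0.22). In RPKM none of the 4 sums overlapped between the groups, but the adaptor counts summed in CPM did, at 175 and 186 in control against 206 and 181 in Isl1_KO. With 2 libraries against 2 the smallest two-sided p of an exact permutation test is 0.333, which each of the RPKM sums had. The Ssbp genes summed to 1.79 and 1.75 times the adaptors in control and to 1.84 and 1.94 times in Isl1_KO.

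The adaptors can also be occupied by nuclear LIM genes that are no members, so all 16 LIM-homeodomain and LIM-only genes listed were summed. The pool was 32.35 and 31.93 RPKM in control, of which Isl1 made up 24.3% and 25.02%, and Lmo4 45.3% and 42.5%. In Isl1_KO the pool was 22.63 RPKM in replicate 1 and 32.86 RPKM in replicate 2, so that the groups overlapped, and Isl1 made up 1.28% and 1.46%. Relative to the adaptors, the pool was 0.750 and 0.695 in control and 0.444 and 0.706 in Isl1_KO. Replicate 2 of Isl1_KO thus had about the pool of the control libraries with a different make-up.

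That difference between the Isl1_KO libraries lay in Lmo2 and Lhx1. Lmo2, the LIM-only partner of Tal1 and Gata factors in blood, stood at 6.43 and 6.62 RPKM in control and at 7.56 and 13.89 RPKM in Isl1_KO (log2 fold change 0.68, SE 0.283, edgeR adjusted p 0.233). Lhx1, a LIM-homeodomain gene of early mesoderm, kidney and head organiser, stood at 1.33 and 1.48 RPKM in control and at 1.23 and 4.53 RPKM in Isl1_KO (log2 fold change 0.98, SE 0.605, edgeR adjusted p 0.386). Both were high in Isl1_KO replicate 2, and Lhx1 in replicate 1 was below control. Lhx8, the other tested LIM-homeodomain gene of the list, gave 9 and 3 control counts and 39 and 17 Isl1_KO counts (edgeR adjusted p 0.192), and Lmo3 had at most 4 counts in a library.

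**Figure D3:**
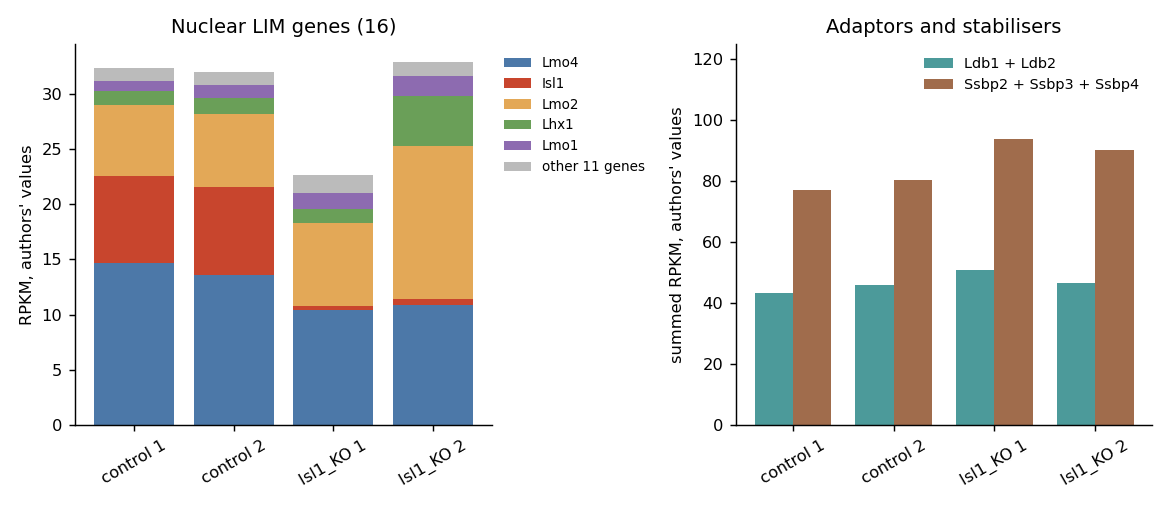
Left, RPKM of the 16 nuclear LIM genes stacked in each library, with Lmo4, Isl1, Lmo2, Lhx1, Lmo1 and the other 11 genes together; right, summed RPKM of the adaptors and of the Ssbp genes (bars from 0). The Isl1 layer is nearly gone in both Isl1_KO libraries, and the total is 22.63 in the first and 32.86 in the second of them.

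Wider lists show what surrounded the members, and their genes were read from the same test. Of 14 further genes whose products are known to meet Ldb1 complexes, all were tested, 1 was higher, 1 was lower, and the median log2 fold change was -0.03, with 6 above 0 and 8 below. When either control library was left out, Mef2c and Myocd alone remained of the 8 genes called in these lists, and the edgeR adjusted p of the other 6 was 0.104 to 0.503. Runx1, a regulator of blood formation, rose from 71.1 ± 1.07 to 106 ± 5.80 CPM (SD, n = 2 each; log2 fold change 0.57, SE 0.0735, edgeR adjusted p 0.0335). Runx1 was not called with limma on log2(RPKM + 0.1), where the adjusted p was 0.0688, nor by the study's criteria, where its log2 fold change of 0.575 in DESeq2 missed 0.58. Gata6, a zinc-finger factor of endoderm and heart, fell from 149 ± 0.321 CPM to 73.4 ± 13.4 CPM (log2 fold change -1.02, SE 0.130, edgeR adjusted p 0.0332). Runx1 and Gata6 share 106 and 58 exon bases with noncoding genes on the opposite strand.

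The partners of Ldb1 that did not pass, named after their values were seen, lay on both sides of 0. On the log2 scale the fold change was 1.18 for Gata2 (edgeR adjusted p 0.0876), 0.93 for Tal1 (edgeR adjusted p 0.0972), 0.92 for Cbfa2t3 (0.0986), 0.85 for Gata1 (0.0698) and 0.66 for Lyl1 (0.181). It was -0.04 for Tcf3, -0.09 for Tcf4 and -0.17 for Tcf12, the E-proteins that pair with Tal1, and -0.13 for Cbfa2t2, with edgeR adjusted p of 0.197 to 0.863. Gata4 (-0.49), Otx2 (-0.28) and Rlim (-0.02) were also below 0. Tal1 stood at 5.08 and 5.33 RPKM in control and at 7.77 and 12.48 RPKM in Isl1_KO, and Gata2 at 4.69 and 4.65 RPKM against 7.91 and 13.81 RPKM. As with Lmo2, replicate 2 of Isl1_KO was the higher library in both. The 6 blood markers, which include Gata1 and 3 embryonic globins, did not move alike, with 3 fold changes above 0 and 3 below and 0 called. Gata1, Klf1 and Itga2b were above 0, and the globins Hbb-bh1, Hba-x and Hbb-y were below. The 6 summed to 425 and 432 CPM in control and 243 and 85.5 CPM in Isl1_KO, lowest in replicate 2. Globins made up most of that sum, and Hbb-bh1 alone gave 284 and 293 CPM in control and 160 and 42.0 CPM in Isl1_KO. The part of this list in the Lmo2 and Gata2 values was not tested. The 5 endothelial markers summed to 161 and 164 CPM in control and to 147 and 94.3 CPM in Isl1_KO, with 0 called.

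Of 3 chromatin partners through which Isl1 is known to act, Smarcd3, the SWI/SNF subunit Baf60c, was lower and Smarca4 and Kdm6b did not pass. Smarcd3 stood at 17.06 and 18.36 RPKM in control and at 9.15 and 6.98 RPKM in Isl1_KO (log2 fold change -1.15, SE 0.167, edgeR adjusted p 0.0410), and it shares 2466 exon bases with genes on the opposite strand, Chpf2 among them. Smarca4, the ATPase Brg1, had a log2 fold change of 0.03 (95% interval -0.14 to 0.19).

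Of 11 second heart field genes 10 were tested, 3 were lower, 0 were higher and the median log2 fold change was -0.86. The 3 were Myocd (-4.30), Mef2c (-4.23) and Hand2 (-1.71), transcriptional regulators of heart development. Mef2c, Hand2 and Tbx20 of this list are also among the cardiac progenitor markers above, so the 2 lists are not independent. Fgf10, a growth factor of the second heart field, did not share that sign, at 5.55 and 5.73 RPKM in control against 5.99 and 14.65 RPKM in Isl1_KO (log2 fold change 0.83, edgeR adjusted p 0.283), and it was chosen for mention after its values were seen. Tbx1 gave 7 and 7 control counts and 0 and 0 Isl1_KO counts and was not tested.

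The LIM domain is also found in proteins of the cytoskeleton, which are no partners of Ldb1. Of 29 such genes 23 were tested, 2 were lower, 0 were higher and the median log2 fold change was -0.27. The 2 were muscle proteins of the Z-disc. Csrp3, the muscle LIM protein, gave 42 and 40 control counts and 2 and 1 Isl1_KO counts, a ratio of 0.0268 with an exact 95% interval of 0.00541 to 0.0810 for counting error. Ldb3, which carries a PDZ and LIM domains and shares only its symbol with the adaptors, stood at 5.63 and 5.93 RPKM in control and at 0.52 and 0.20 RPKM in Isl1_KO (log2 fold change -3.99, SE 0.355, edgeR adjusted p 0.0128).

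**Figure D4:**
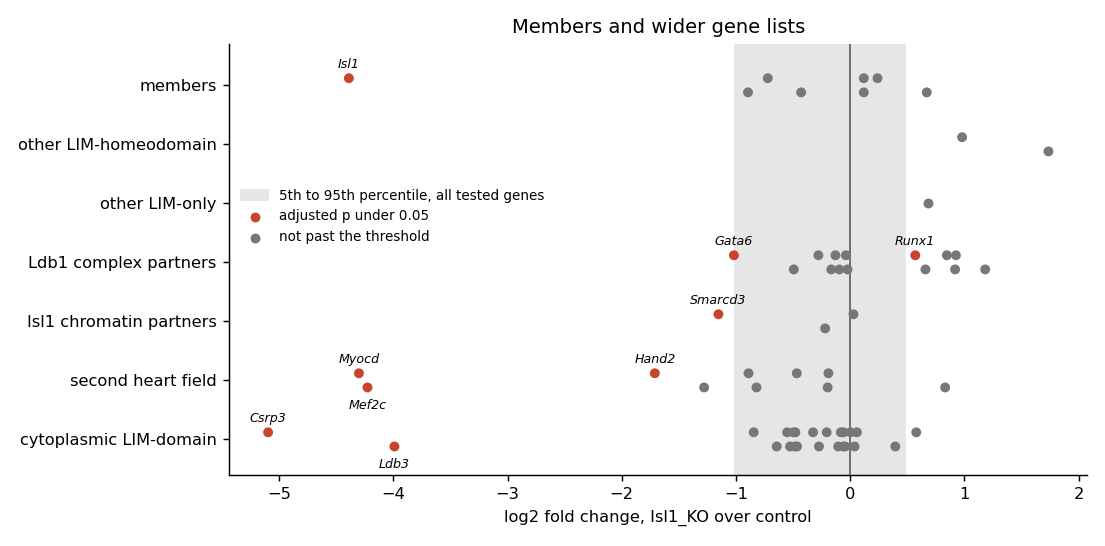
Log2 fold change, Isl1_KO over control, of the tested members and of 6 wider lists (1 point per gene, red and named where the adjusted p is under 0.05), over the range from the 5th to the 95th percentile of all tested genes (grey). Of the red points, only Runx1 lies to the right of 0.

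The genes most like Isl1 over the 4 libraries were found by the distance between log2 CPM values centred on each gene's mean, among tested genes whose mean log2 CPM was 2 or more. The nearest was Myl4, an atrial and embryonic myosin light chain, at a distance of 0.107, with 113 and 119 CPM in control and 4.76 and 7.63 CPM in Isl1_KO. It was followed by Myocd, a coactivator of muscle genes (0.505), Slc8a1, the sodium-calcium exchanger (0.516), Hcn4, a pacemaker channel (0.615), and Nebl, which encodes nebulette of the Z-disc (0.616). No other member was among them. With 4 libraries in 2 groups the measure mostly ranks genes by the size of the group difference.

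**Figure D5:**
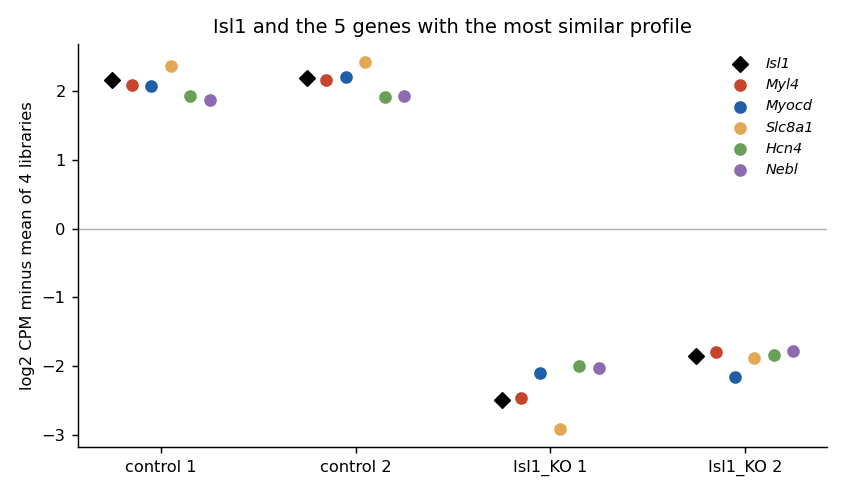
Log2 CPM minus the gene's mean over the 4 libraries, for Isl1 (diamonds) and the 5 genes with the most similar profile (circles). Isl1 and Myl4 stay close in every library, and Slc8a1 lies lowest in Isl1_KO replicate 1.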

How the data were processed

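The authors mapped reads of 4 poly(A) libraries to mm9 with STAR (introns of 20 to 500000 bases) and counted exonic reads of RefSeq transcripts with HOMER on both strands, without adjustment; versions are not given in the sources used here. The deposited counts are whole reads, shared between transcripts of 1 gene. The authors derived the deposited RPKM from them in edgeR. The authors' DESeq2 columns (mean count signal, log2 fold change and its error, Wald score, p-value and adjusted p-value) hold their own comparison, were deposited beside these and were not used. The number of unmatched columns of per-sample values was 0.

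Groups and replicate numbers follow the sample titles; the design text speaks of a knockdown, the titles and methods of a knockout. The members and gene lists were chosen with earlier results of these data known, and some listed genes are not reported here. By rule, all members, the list genes past the threshold (at most 6 a list, otherwise the 2 most abundant) and the 5 genes most like Isl1 were named, and any other gene, such as Fgf10, Tbx1, Smarca4, Kdm6b, the markers and the partners of Ldb1 that did not pass, was named after its values were seen. Counts were tested in edgeR 4.0.16 (R 4.3.3; TMM, filterByExpr, quasi-likelihood F test, two-sided, no covariate), CPM used effective library sizes, and profiles used a prior count of 1. The scripts were tested on simulated data. With 2 libraries a group, p-values measure the spread between these libraries. The paper's methods name 2 clones a group, but the sample titles give replicate numbers and no clone. The files do not show that the closely similar control libraries came from separate cultures, and their spread may be technical. Floors and intervals from counts cover counting error only. Alternatives used DESeq2 1.42.0, limma 3.58.1 on log2(RPKM + 0.1), other scalings, filters and entries, and each library left out. Gene positions are those of GENCODE vM1 (NCBIM37, mm9). Intervals used scipy 1.17.1, tables numpy 2.4.6 and pandas 2.3.3, and figures matplotlib 3.10.9, under Python 3.11.15.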

Additional observations from a re-analysis of the deposited data

How the results depend on the processing

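No member changed direction under any of the 12 alternatives in which it had a value, and Isl1 was called in all of them, with log2 fold changes of -4.75 to -4.08. Of all tested genes 312 were called, against 492 without a filter, 602 in DESeq2 and 992 by the study's criteria, and the cause was not tested. With a library left out the count ranged from 28 to 6355, since the remaining pair of either group then sets the spread. Members called were 1, against 2 without a filter and 2 by the study's criteria, and from 1 to 7 with a library left out. In the wider lists 8 genes were called, against 13 in DESeq2 and 17 by the study's criteria, and from 2 to 39 with a library left out. The log2 ratio of the LIM-homeodomain sums ranged from -3.80 to -3.54.

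A replicate block gave 428 called genes, 1 member and 10 list genes among them, with Isl1 at -4.39. The deviations of same-numbered libraries had a correlation of 0.0145 over 12715 genes. The control libraries differed by little beyond counting error, so this value cannot show whether the numbers pair the libraries. Isl2 and Lhx2, at 3 to 10 counts a library, are limited by depth.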
